A study of Solea senegalensis with 8 samples.

Results

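Trypsinogen 1a (try1), trypsinogen 2 (try2), chymotrypsinogen 2 (ctr2), elastase 1 (cela1) and elastase 4 (cela4) encode digestive serine proteases, and their probes were followed here in larvae of Senegalese sole (Solea senegalensis) held at low and at sea water salinity. The scanner files name probes without descriptions, so that each gene was matched to the probe carrying the number of its transcript in the study's qPCR primer list: Contig54412 (try1), Contig31826 (try2), Contig53434 (ctr2), Contig52166 (cela1) and Contig53593 (cela4). These are 5 of 43441 distinct non-control probes, each printed as 1 spot per array, and in the scanner files nothing but the number ties them to the genes. The study had chosen these genes among those it called differentially expressed on the same arrays, so that the differences below describe the chosen genes and are no independent evidence of their direction.

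Embryos of spontaneous spawns were moved at the gastrula stage to 10 or 36 ppt at 20 °C, and whole larvae were taken at day 3 after hatching in pools of about 100 larvae. RNA of 4 pools per salinity was labelled with Cy3 and hybridised to one-colour Agilent arrays, 1 pool per array, where the brightness of a spot follows the amount of matching transcript. Per salinity the sample labels give 2 tanks with 3 pools each and the methods 3 tanks with 1 pool each. The tank of each pool is not given, so that p-values rest on the spread between these arrays and not between tanks. In the limma fit used below this is 1 spread common to all tested probes, and not that of each gene.

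Trypsin, chymotrypsin and the pancreatic elastases are made by the acinar cells of the exocrine pancreas as inactive zymogens and released into the gut. In vertebrates trypsin is activated first and then activates the other zymogens. Trypsin cuts proteins after basic residues, chymotrypsin after large hydrophobic ones and elastases mostly after small ones, and in marine fish larvae the exocrine pancreas forms before the larva begins to feed. In RNA of whole larvae, fewer acinar cells and less zymogen RNA per cell cannot be told apart.

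The probe sequences were not used here. The sequences below are the study's qPCR primers for the same transcript numbers, shown because the study lists them beside the gene name and the number. Their places on the transcripts were not examined. They are written 5′ to 3′ with the amplicon length after them. Capitals mark codons of 2 stretches that serine proteases of this family share, found by translating the forward primers in all 3 frames: in cela1 the stretch around the active-site serine, and in try2 the serine, tryptophan and glycine that line the substrate pocket.
try1 forward: gaaacaccatgagctcctctgctgacaag
try1 reverse: caggtatccagcgcagaacatggcatt
try2 forward: gggtgtggtgTCCTGGGGCtatgg
try2 reverse: caggagttgtagttgcagaccttggcgtag
ctr2 forward: gacccgctacaacgctcctgacacc
ctr2 reverse: cactgatcttgtttccccagaactgacgac
cela1 forward: caatGGCGACTCTGGCGGTCCT
cela1 reverse: cggtgggcttctggggataattgcat
cela4 forward: tggaagccgcacctacagagtctaccttg
cela4 reverse: cttggcgggactgatggcgatg
The amplicons span 131 bp (try1), 81 bp (try2), 104 bp (ctr2), 113 bp (cela1) and 88 bp (cela4). Primers of different genes shared a run of at most 9 bases on either strand. Since primers can lie at different places of their transcripts, this does not tell how alike the transcripts or their array probes are.

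The deposited scanner files and the authors' table of processed log2 values disagree about the salinities. Replicate by replicate, a column of that table correlated with the scanner file of the opposite salinity at a Pearson's r of 0.9979 or more over the spots, and with the file that shares its label at 0.6637 or less. By themselves the deposited files do not settle which is right. Arrays are called here by the labels of their scanner files, and every direction is turned round under the labels of the value table. The scanner labels give the direction opposite to the one the study states for these genes, and the labels of the value table give the study's direction. The study also reports that qPCR on larval pools bore out its array calls for all these genes. That measurement does not rest on the labels of the array files, and it was not analysed here. At both salinities Feature Extraction marked the grid as not passed for replicates 2 and 4. The median brightness of the negative control spots was 140.5 to 2511 on these 4 arrays and 52 to 84.5 on the other 4, and 4238 to 7829 probes were well above background on the former and 11789 to 16184 on the latter.

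All 5 protease probes were dimmer on the arrays labelled 10 ppt than on those labelled 36 ppt. With the signals as given they were so by 4.64-fold (try2) to 17.5-fold (try1), but 4 of the 5 were not well above background on 2 or 3 of the arrays labelled 10 ppt. With these dim signals raised to the lowest signal well above background on their array, the differences were at least 3.34-fold (cela4) to 8.13-fold (try1), and ctr2, which had no dim signal, differed 7.13-fold. All 4 arrays labelled 10 ppt lay below all 4 labelled 36 ppt for each of the 5 probes. The same held for 14.5% of the 4595 probes tested. A probe was tested if it was well above background throughout the 4 arrays of one salinity or both. The 5 probes were among them, ctr2 through both salinities and the other 4 through the arrays labelled 36 ppt alone, where they were the brighter. None of their 40 spots over the 8 arrays was saturated or marked as an outlier, and all 20 on the arrays labelled 36 ppt were well above background, against 11 of 20 on those labelled 10 ppt. Values below are log2 processed intensities minus the 75th percentile of the array, called normalized log2 signals. They compare a probe between arrays and do not compare the amounts of different transcripts. The bounds above hold for this scaling, for this background subtraction and for the mean of all 4 arrays per salinity alone. On the arrays without a passed grid the 75th percentile lay 0.64 to 1.44 below the lowest signal well above background. Scaled to the median of the tested probes, with the signals as given, ctr2 differed 5.3-fold and try2 3.46-fold. Dim signals were not raised under that scaling.

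**Figure D1:**
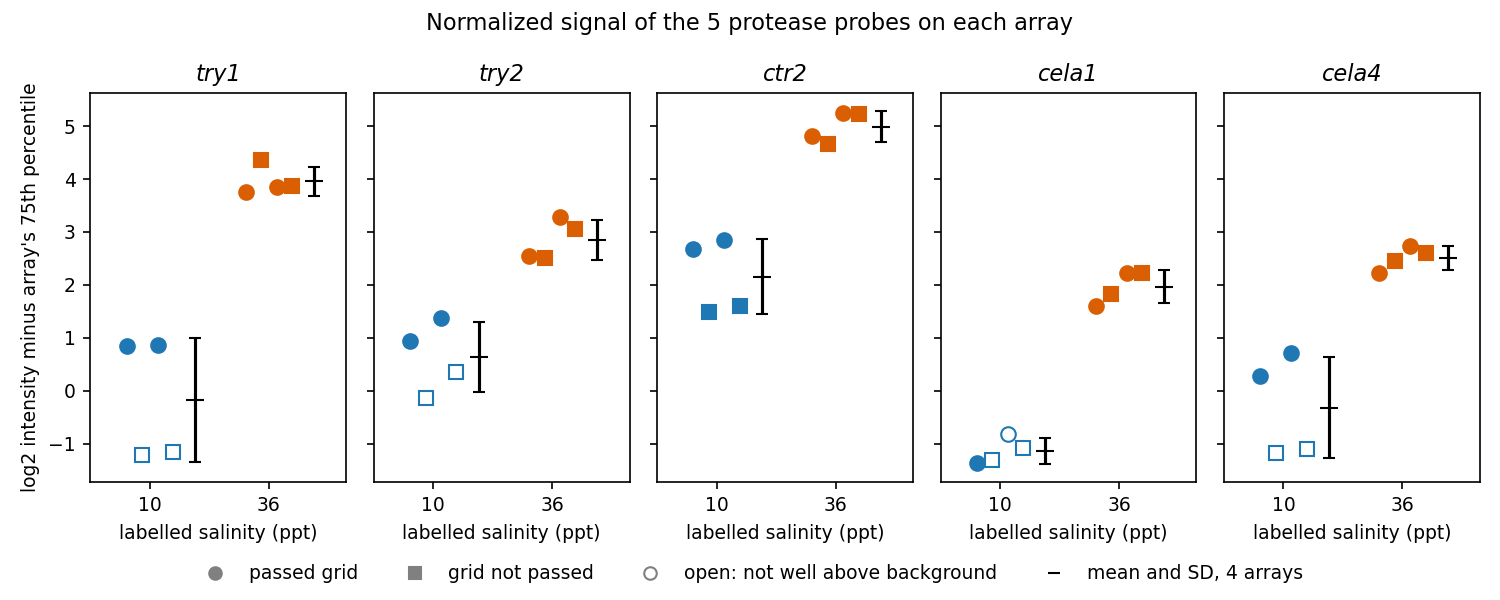
Normalized log2 signal (y axis) of the 5 protease probes on each of the 8 arrays, by the salinity on the scanner label (x axis, ppt, replicates 1 to 4 from left to right). Circles are arrays with a passed grid, squares those without, open symbols are signals not well above background, and bars give mean and SD of 4 arrays. At labelled 36 ppt every array lies above every array at labelled 10 ppt, and the open symbols all lie at labelled 10 ppt.

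With the signals as given, the trypsinogens had the widest (try1) and the narrowest (try2) difference. On the arrays with a passed grid cela1 was the widest with the signals as given (-2.99, against -2.95 for try1). This order rests on the dim signal of cela1 on replicate 3 labelled 10 ppt. With that signal raised, the values were -2.77 (cela1) and -2.95 (try1). Over the 8 arrays with the dim signals raised, cela4 was the narrowest (at least 3.34-fold, against 3.37-fold for try2). The try1 probe had normalized log2 signals of 0.84, -1.22, 0.86 and -1.16 on replicates 1 to 4 labelled 10 ppt, and of 3.76, 4.37, 3.84 and 3.87 on those labelled 36 ppt. At labelled 10 ppt the arrays thus fell into a higher pair (replicates 1 and 3, with a passed grid, on which the probe was well above background) and a lower pair (replicates 2 and 4, on which it was not). The processed intensity on the lower pair was 264.3 and 438.5, with an error by Feature Extraction of 86.9% and 99.2% of the value, against 10.8% and 13.1% on the higher pair. The means were -0.17 ± 1.18 (SD, n = 4) and 3.96 ± 0.27 (SD, n = 4), a difference of -4.13 (SE 0.32, limma, Benjamini-Hochberg adjusted p = 1.42e-34). With the dim signals raised to the lowest signal well above background on their array, the probe differed at least 8.13-fold over the 8 arrays. It was 7.75-fold on the arrays with a passed grid and, with the dim signals raised, 8.52-fold on the others.

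The try2 probe had normalized log2 signals of 0.94, -0.14, 1.38 and 0.36 on the arrays labelled 10 ppt and 2.55, 2.51, 3.28 and 3.05 on those labelled 36 ppt. The salinities came closest here, with a gap of 1.12 between the highest array labelled 10 ppt and the lowest labelled 36 ppt, against 2.91 for try1. The means were 0.64 ± 0.66 (SD, n = 4) and 2.85 ± 0.38 (SD, n = 4), and the difference was -2.21 (SE 0.32, limma, adjusted p = 5.62e-10). Replicates 2 and 4 labelled 10 ppt were again the lower ones and not well above background, and with them raised the probe differed at least 3.37-fold.

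The chymotrypsinogen probe ctr2 was the one member well above background on all 8 arrays, so that none of its signals was raised. The fold of ctr2 still moved with the scaling, to 5.3-fold when scaled to the median of the tested probes. It was 4.81-fold on the arrays with a passed grid and 10.6-fold on the others. Its normalized log2 signals were 2.68, 1.48, 2.85 and 1.61 at labelled 10 ppt and 4.82, 4.66, 5.24 and 5.23 at labelled 36 ppt. Its processed intensity was 1723 to 3943 on the former and 24422 to 28557 on the latter. The lower pair at labelled 10 ppt was the same as for the trypsinogens, although the error of its signal there was 18.2% and 18.9%. The means were 2.15 ± 0.71 (SD, n = 4) and 4.99 ± 0.29 (SD, n = 4), which lay 7.13-fold apart (-2.83, SE 0.32, limma, adjusted p = 3.61e-16).

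Over the 8 arrays the elastases differed by similar amounts, from unlike sets of arrays. On the arrays with a passed grid they did not, at 7.97-fold (cela1) and 3.96-fold (cela4). With the dim signal of cela1 on these arrays raised, it was 6.83-fold. The cela1 probe had normalized log2 signals of -1.36, -1.30, -0.81 and -1.08 at labelled 10 ppt, where it was well above background on replicate 1 alone, and of 1.60, 1.82, 2.22 and 2.23 at labelled 36 ppt. It was the one member whose arrays labelled 10 ppt did not fall into pairs by the grid, and the one with a smaller SD there than at labelled 36 ppt. The means were -1.14 ± 0.25 (SD, n = 4) and 1.97 ± 0.31 (SD, n = 4), which lay 8.62-fold apart (-3.11, SE 0.32, limma, adjusted p = 1.7e-19). With the 3 dim signals raised it was at least 3.7-fold.

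The cela4 probe had 0.29, -1.17, 0.71 and -1.09 at labelled 10 ppt and 2.23, 2.44, 2.74 and 2.61 at labelled 36 ppt. As for try1, the arrays without a passed grid were the lower pair at labelled 10 ppt, with errors of 93.9% and 99.8% of the signal. The means were -0.32 ± 0.96 (SD, n = 4) and 2.50 ± 0.22 (SD, n = 4), which lay 7.07-fold apart (-2.82, SE 0.32, limma, adjusted p = 4.78e-16), or at least 3.34-fold with the dim signals raised.

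In the limma fit over the 4595 probes, all 5 members had an adjusted p under 0.05 and were lower at labelled 10 ppt, as were 19.9% of all probes tested, while 0.696% were higher and 20.6% were called in either direction. For the 4 members that entered the fit through the arrays labelled 36 ppt alone this count is no support, since a probe that is dim at one salinity could pass only by being brighter at the other. Without a filter on dim probes, 18 of 43441 probes were called, all lower, and cela1 was the one member among them. With the signals as given all 5 were lower by over 2 log2 units, as were 2.35% of the probes tested. With the dim signals raised, try1 (-3.02) and ctr2 (-2.83) were, and try2 (-1.75), cela1 (-1.89) and cela4 (-1.74) were not. The share of all tested probes past that limit was not counted with dim signals raised. By the labels of the value table the same fit gave all 5 as higher at 10 ppt, by 17.6-fold (try1), 4.66-fold (try2), 7.16-fold (ctr2), 8.65-fold (cela1) and 7.09-fold (cela4). The fit estimated 1 common variance for all probes (infinite prior degrees of freedom), so that the members have the same SE and their small adjusted p-values follow from the size of the difference alone. With each probe's own spread, 1 of the 5 (cela1) passed the adjusted threshold in an unequal-variance test and all 5 passed unadjusted. The share of all tested probes that passed was counted for neither, so that these counts have no background. At labelled 10 ppt cela1 was well above background on 1 array alone, so that its small SD there (0.25) rests on dim signals. The same dim signals entered the fit without a filter. The ctr2 probe, well above background on all 8 arrays, did not pass (unequal-variance test, adjusted p = 0.0925). An exact permutation test of each probe over the 8 arrays gave p = 0.0286 (two-sided) for all 5, the smallest that 4 against 4 arrays allow. This p follows from the lack of overlap given above, which 14.5% of the tested probes shared, and adds no support. The test also takes no account of slide and grid class.

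Among the differences of all 4595 probes, ordered from the most negative, ctr2 stood at place 30. The places of the other members rest on their dim signals. The probe most reduced in the whole fit, with the signals as given, had a difference of -6.02, and the median probe differed by -0.40. The split of all calls moved with the scaling, from 915 lower and 32 higher here to 1031 and 813 with quantile normalization and 1131 and 1198 when scaled to the median of the tested probes, while all 5 members stayed lower. With that last scaling, which takes the shift of the median probe out, the members differed by -3.71 (try1), -2.68 (cela1), -2.41 (ctr2), -2.40 (cela4) and -1.79 (try2). Other genes of the study's qPCR list with a probe in the fit differed by -1.81 (agt, angiotensinogen), -1.40 (hsp90aa, a cytosolic chaperone) and -1.05 (taldo, the pentose phosphate enzyme transaldolase). Whether the proteases differed more than these was not tested.

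**Figure D2:**
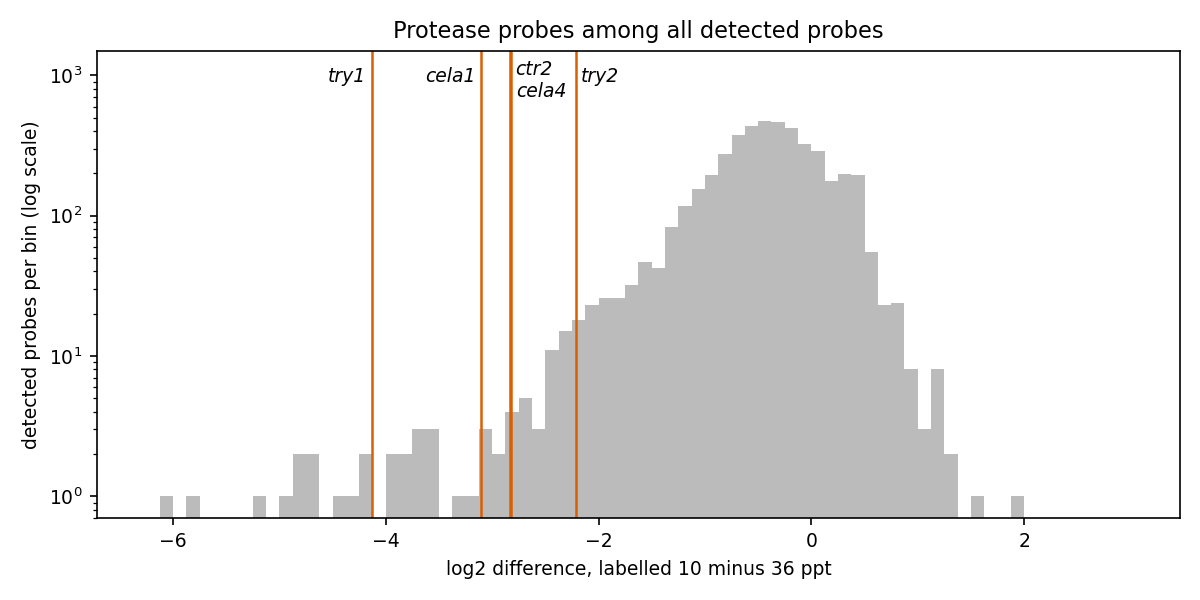
Distribution of the log2 difference between arrays labelled 10 and 36 ppt (x axis) over the 4595 tested probes, as probes per bin on a log scale (y axis). Vertical lines mark the 5 protease probes with the signals as given, which lie between -4.13 (try1) and -2.21 (try2) while the median probe lies at -0.40.

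Arrays of the same replicate number shared a slide and a grid class. Within each such pair all 5 probes were lower at labelled 10 ppt. This follows from the lack of overlap given above and adds no support, so that only the sizes are of use here. For try1 the fold in a pair was 7.6 (replicate 1), 48.1 (replicate 2), 7.91 (replicate 3) and 32.8 (replicate 4). The pairs with a passed grid thus gave much the smaller values. The same order held for cela4, with 3.84-fold and 4.08-fold in the pairs with a passed grid and 12.2-fold and 13.01-fold in the others. For ctr2 the folds were 4.4 and 5.25 against 9.05 and 12.3. For try2 they were 3.06 and 3.73 against 6.26 and 6.48, and for cela1 they were 7.74 and 8.2 against 8.71 and 9.97. On the arrays with a passed grid alone, on which all but 1 of the members' signals were well above background, the differences were 7.75-fold (try1), 3.38-fold (try2), 4.81-fold (ctr2), 7.97-fold (cela1) and 3.96-fold (cela4). Within slides the values lay closer together, at 19.1-fold and 16.1-fold for try1 and 6.31-fold and 8.05-fold for ctr2.

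The dependence on the grid class was tested as an interaction in limma, which was taken up once the values were known. The salinity difference of try1 was -2.95 with a passed grid and -5.31 without, and the difference between them of 2.36 (SE 0.53) had an adjusted p of 0.037. It was 1 of 4 probes called of the 4595 (0.0871%). The other members were not called, with 1.67 for cela4 (adjusted p = 0.388 from limma), 1.14 for ctr2, 0.92 for try2 and 0.23 for cela1 (adjusted p of 0.62 to 0.736). With dim signals raised to the limit of their array, the classes gave -2.95 and -3.09 for try1, an interaction of 0.14 (limma, adjusted p = 0.831). The same raising turned the order for cela1, with an interaction of -1.77 (limma, adjusted p = 0.346). For ctr2, which had no dim signal, -2.27 and -3.40 stood unchanged.

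**Figure D3:**
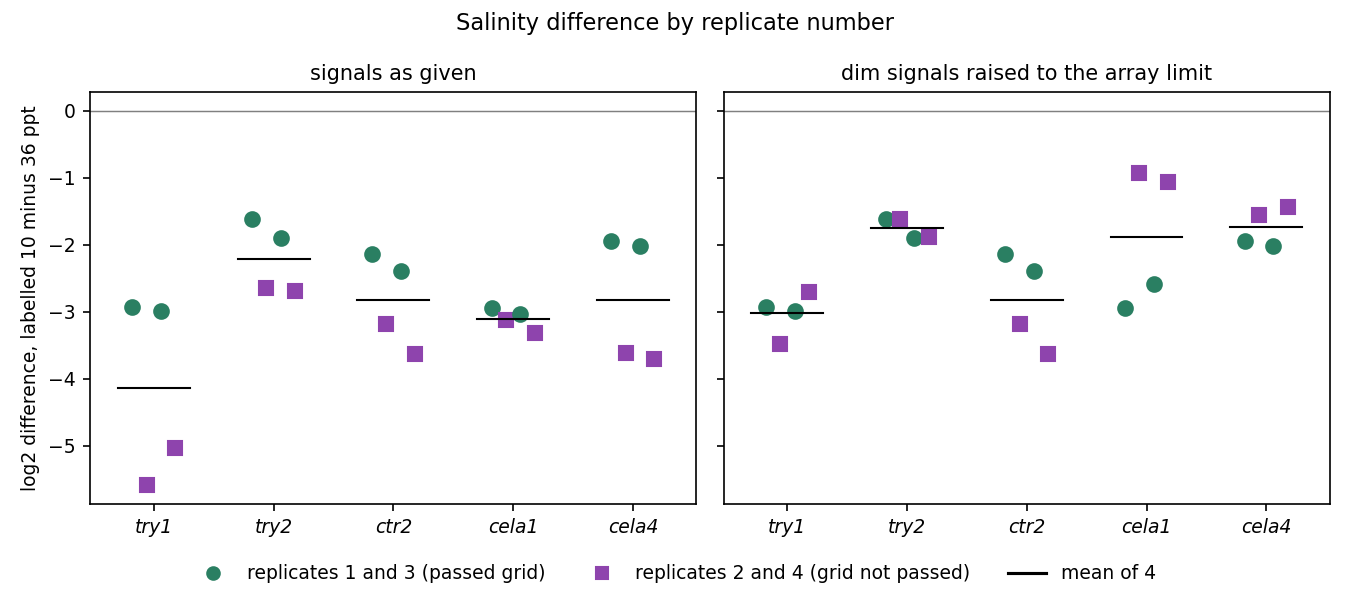
Difference in normalized log2 signal between the arrays labelled 10 and 36 ppt of the same replicate number (y axis), for each protease probe (x axis), with the signals as given (left) and with signals not well above background raised to the lowest signal well above background on that array (right). Circles are replicates 1 and 3, squares replicates 2 and 4, lines the means of 4. All points lie below 0, and when dim signals are raised the squares of try1 move from -5.59 and -5.03 to -3.48 and -2.70, on either side of its circles at -2.93 and -2.98.

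Unequal change among the 5 genes was tested on differences between 2 probes of the same array, in which the scaling of the array cancels. Of 10 pairs of genes, 6 changed unequally between the salinities (exact permutation test, two-sided, p = 0.0286 each, adjusted over the 10 pairs 0.0476), and in all 6 the salinities did not overlap. The 10 pairs are made from the same 5 probes and are not independent. How often pairs of other tested probes would pass was not counted, so that 6 of 10 has no background. The log2 signal of try1 minus that of try2 was -0.81 ± 0.62 (SD, n = 4) on the arrays labelled 10 ppt and 1.11 ± 0.57 (SD, n = 4) on the others, an unequal change of -1.92. For try1 minus cela4 the unequal change was -1.31 and for try1 minus ctr2 -1.30. With the signals as given, try1 thus differed more between the salinities than try2, cela4 and ctr2. For try2 it was 0.89 minus cela1, 0.62 minus ctr2 and 0.61 minus cela4, so that with the signals as given try2 differed less than these. With the dim signals raised, try1 minus ctr2 changed by -0.19, try2 minus cela1 by 0.13 and try2 minus cela4 by -0.01. None of these was near the smallest p. After adjustment over 10 pairs, none can pass unless 6 are at the smallest p. Without replicate 4 labelled 10 ppt, or without any one of the arrays labelled 36 ppt, 3 to 5 pairs were at that p and none passed, while try1 minus try2 stayed between -2.10 and -1.67. The order of the sizes is the same by the labels of the value table.

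The remaining 4 pairs did not pass. The within-array difference of ctr2 and cela4 was 2.47 ± 0.26 (SD, n = 4) on the arrays labelled 10 ppt and 2.48 ± 0.19 (SD, n = 4) on the others, a change of -0.01 (exact permutation test, p = 0.943). This too rests on the dim signals of cela4: with them raised the change was -1.09 (exact permutation test, p = 0.0571), and with quantile normalization it was 0.69 (p = 0.4). The try1 and cela1 probes changed unequally by -1.03, but the arrays overlapped (exact permutation test, p = 0.257). No pair passed after adjustment with the dim signals raised, with normexp background correction, or with the arrays paired by replicate number, where an exact sign-flip permutation test over 4 pairs cannot go below p = 0.125. With the dim signals raised, try1 against try2 (-1.27) and try1 against cela4 (-1.28) had the smallest p that the design allows (exact permutation test, p = 0.0286, adjusted 0.0952). So did try2 against ctr2 (1.08), but raising try2 alone can only widen that pair. On replicates 2 and 4 labelled 10 ppt, try1, try2 and cela4 were all raised to the same limit of the array. The differences of try1 to try2 and to cela4 on these arrays were thus set by the raising, so that this p is no support. For try1 against ctr2 the value went from -1.30 to -0.19.

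**Figure D4:**
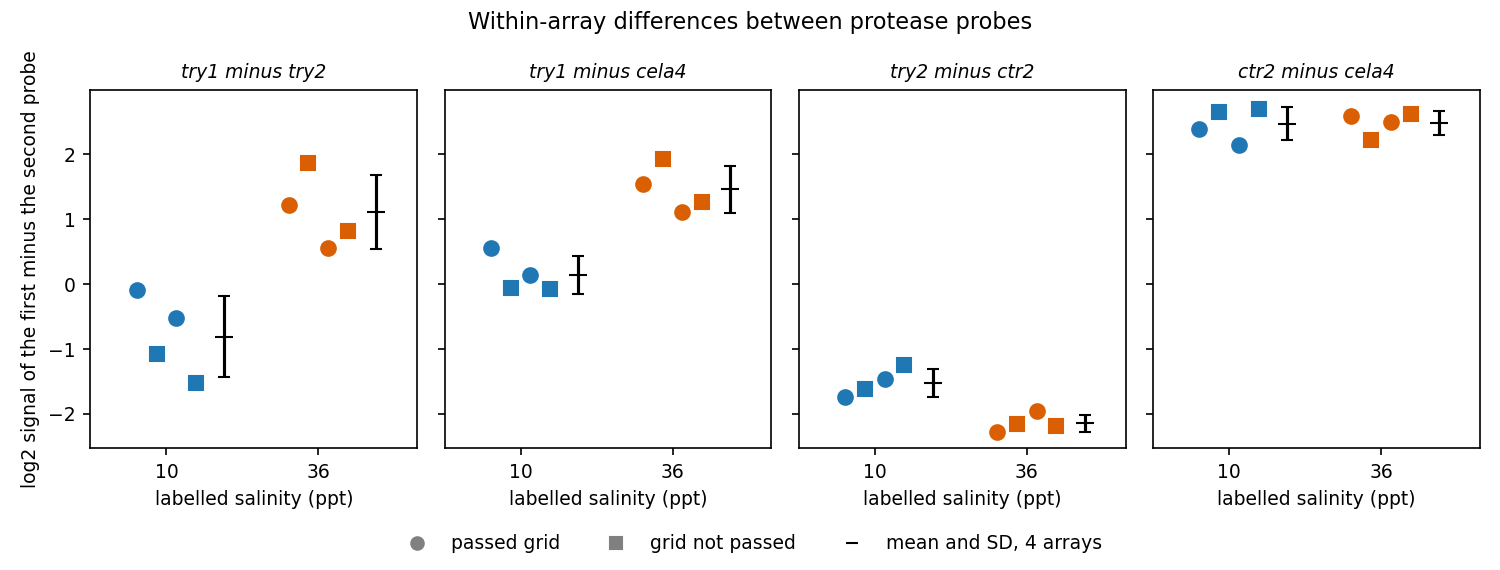
Log2 signal of one protease probe minus that of another on the same array (y axis), by labelled salinity (x axis, ppt), for 4 of the 10 pairs, with mean and SD of 4 arrays. The arrays of each salinity stand apart for try1 minus try2, try1 minus cela4 and try2 minus ctr2, and lie at the same height for ctr2 minus cela4 (2.47 and 2.48), which with the dim signals of cela4 raised changed by -1.09.

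With the signals as given, the order of the arrays was largely shared. Of the 4 arrays labelled 10 ppt, replicate 3 was the highest for all 5 probes and replicate 2 the lowest for all but cela1, whose lowest was replicate 1. Of the arrays labelled 36 ppt, replicate 2 was the lowest for try2 and ctr2 but the highest for try1, and replicate 1 was the lowest for the others. The SD at labelled 10 ppt was 4.3 times that at labelled 36 ppt for try1, 4.33 times for cela4, 2.42 times for ctr2, 1.74 times for try2 and 0.788 times for cela1, against a median of 1.83 times over the tested probes. For all members but ctr2, the order and SD at labelled 10 ppt rest in part on dim signals. With these raised, replicate 4 was the highest and replicate 1 the lowest for try1, cela1 and cela4. On replicates 2 and 4 these probes then stood at the limit of the array. That they share replicate 4 as the highest was thus set by the raising. For try2 the highest and the lowest array stayed the same.

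The rank of each probe among all non-control spots of its own array gave a description that needs no scaling. The try1 spot stood between the 95.9th and 98.0th percentile on the arrays labelled 36 ppt. At labelled 10 ppt it stood at the percentiles 81.7 and 83.4 on replicates 1 and 3. On replicates 2 and 4 it was not well above background, so that its rank there has no reading. The ctr2 spot stayed between 89.5 and 94.4 at labelled 10 ppt and between 98.0 and 98.3 at labelled 36 ppt. The cela1 spot stood at 62.4 on replicate 1 labelled 10 ppt, the one array of that salinity where it was well above background, and between 87.0 and 90.7 at labelled 36 ppt.

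For each member the 3 probes with the most similar profile over the 8 arrays were sought among the 4457 other tested probes with a value on every array, by Pearson's r. This r is set mostly by the step between the salinities, and the 8 arrays share slides and background classes. Some of these nearest probes were themselves members: ctr2 was the nearest to try2 (r = 0.990) and the third nearest to cela4 (0.992), and cela4 was the third nearest to try1 (0.989). None of these relations was mutual, and the 3 nearest to ctr2 and to cela1 held no member. One further probe, Contig4579, was close to both try1 (0.992) and cela4 (0.992), with a difference of -2.44 between the salinities. The probes nearest to cela1 were others, led by gr2_est_c28989 (0.988), which had the largest decrease of all tested probes (-6.02, from a mean of 5.16 at labelled 36 ppt to -0.86 at labelled 10 ppt), and gr1_c159122 (0.986, -4.84). Of the 8 arrays, gr2_est_c28989 was well above background on 5, and gr1_c159122 and Contig4579 on 6. The sizes of their differences thus rest in part on dim signals. The nearest to ctr2 was GG3IVWD02DGQMZ (0.997, -2.23). The files name none of these probes, and the other enzymes of the pancreas could not be looked up for the same reason.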

How the data were processed

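The authors deposited the output of Agilent Feature Extraction for each array (version 10.7.3.1 per the file headers, 9.1 in the submitters' processing notes), giving a processed intensity for every spot after subtraction of background and of spatial trends, with arrays not yet on one scale. A log2 table deposited by the authors followed log2 intensity minus the 75th percentile of the array less the median of that spot. It was used as an alternative, and 2 of its spots that the scanner files do not hold were not used here.

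The 75th percentile of each array over 43801 non-control spots was subtracted from its log2 intensities, outlier spots were dropped and repeated spots averaged. In limma (3.58.1, R 4.3.3) the 4595 probes well above background on all arrays of at least 1 salinity were fitted with salinity as the only term (lmFit, eBayes, Benjamini-Hochberg adjusted p under 0.05 over all of them). The deviations from the salinity means correlated between same-numbered arrays (r over probes of 0.359, 0.378, 0.488 and 0.432), which share a slide and a grid class. The numbers were therefore used as a block in one alternative. Further alternatives were other scalings, normexp background correction (offset 50), other filters, slides, grid classes, variance priors and tests, raised dim signals and each array left out in turn. A fit without background subtraction and the interaction with the grid class were added after the data had been examined.

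The members, the tests and the rule for named probes (the 5 members, the other genes of the study's list matched by number, and the 3 nearest probes by Pearson's r) were chosen with earlier results of these data known. The qPCR measurements were not analysed here. The number of arrays, 4 per salinity, limits the precision.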

Additional observations from a re-analysis of the deposited data

Results flagged for a closer look

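The salinity difference of try1 was larger on the arrays without a passed grid than on those with one, by 2.36 on the log2 scale (limma interaction, adjusted p = 0.037). It was -5.31 on the former and -2.95 on the latter, with 2 arrays per salinity in each class. On the former, both signals at labelled 10 ppt were not well above background, and with them raised to the lowest signal well above background the difference was -3.09. Directions are those of the scanner labels.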

How the results depend on the processing

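Apart from the value table, whose labels turn every direction round (differences at 10 against 36 ppt of 4.14 for try1, 2.22 for try2, 2.84 for ctr2, 3.11 for cela1 and 2.83 for cela4), all alternatives kept the 5 proteases lower at labelled 10 ppt. All 5 passed in 25 of 29 alternatives, a count that includes the value table and the unadjusted unequal-variance and exact permutation tests. The exact permutation test could not fail here, since the arrays of the salinities did not overlap for any member. Over all 4595 probes the number called lower moved widely, from 24 with no background subtraction to 3557 with no scaling. Among the 25 was the replicate block (differences of -4.13 for try1, -2.21 for try2, -2.83 for ctr2, -3.11 for cela1 and -2.82 for cela4, as without the block), which changed no call of a single gene. With normexp 35 of the 4595 probes were called, all lower. Of the members 3 passed, and try2 (-1.80, limma adjusted p = 0.184) and cela4 (-1.94, 0.129) did not. Without a filter on dim probes 18 probes were called, all lower. Of the members 1 passed, and try1 (-4.13, limma adjusted p = 0.081), try2 (-2.21, 0.329), ctr2 (-2.83, 0.164) and cela4 (-2.82, 0.22) did not, since the same differences were adjusted over 43441 probes with the variance prior estimated over these. The unequal-variance test with adjustment passed 1, with the same differences and adjusted p of 0.12, 0.0982, 0.0925 and 0.145 for these 4. Median brightness without background subtraction passed 1, and try2 (-1.74, limma adjusted p = 0.644), ctr2 (-2.45, 0.0584), cela1 (-2.33, 0.0984) and cela4 (-1.91, 0.506) did not. On the arrays without a passed grid try1 differed 39.7-fold. Without single arrays the differences were -4.48 to -3.78 (try1), -2.46 to -1.96 (try2), -3.07 to -2.61 (ctr2), -3.23 to -3.02 (cela1) and -3.16 to -2.54 (cela4), all called. The share of all probes called lower in these fits was smallest without replicate 4 labelled 10 ppt (568 of 5738). It was largest without replicate 1 labelled 10 ppt (1911 of 4595). The filter requiring all 8 arrays left ctr2 alone.

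Of the 10 pairs of members, which are not independent, 6 passed with the signals as given, and the share among pairs of other probes was not counted. The count was 6 with quantile normalization, of which 5 were the same pairs (try2 and ctr2 was lost, ctr2 and cela1 gained), 6 by the value table, and 0 with normexp, with the replicate block (arrays paired by number), with dim signals raised and with no background subtraction. Without single arrays the count was between 0 and 6. It was 0 where fewer than 6 pairs were at the smallest p, which was so without replicate 4 labelled 10 ppt and without any one of the arrays labelled 36 ppt.

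The limits are the dim signals at labelled 10 ppt, which set the folds of all members but ctr2 in part, the 4 arrays per salinity, the unknown tanks, and the salinity labels that the 2 deposits give differently.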
